A study of Homo sapiens with 15 samples.

Results

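The transcription factors PAX8, PAX2, HNF4A, LHX1, EMX2, WT1 and KLF15 build the nephron or maintain its tubules and podocytes, and their RNA was read in HK-2 cells, an immortalised line of human renal proximal tubule epithelium. They were chosen by symbol: each of the 7 had a row among the 24880 loci of the deposited table. Polyadenylated RNA was sequenced in 15 libraries, 3 in each of 5 groups, and all cells were wild type and grown in DMEM/F12 with serum. The mock group received PBS and is labelled 0 h. Cells treated with TGFb at 2 ug/ml received either FT895, an inhibitor of the deacetylase HDAC11, or its DMSO vehicle, for 1 h or 12 h. No group received FT895 without TGFb, none received the vehicle alone, and no untreated group matches 12 h, so an effect of TGFb cannot be told apart from that of time in culture or of DMSO in the comparisons with mock. Nothing in the labels ties the libraries to separate cultures, and p-values therefore reflect library-to-library spread, which may be technical.

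PAX2 and PAX8 are paired-box factors that act together to found the nephric lineage, and the adult tubule keeps PAX8. LHX1 is a LIM-homeobox factor of the nephric duct and the early nephron, and EMX2 is a homeobox factor of the duct and ureteric bud epithelium. WT1 is a zinc-finger factor of nephron progenitors and later of podocytes. HNF4A, a nuclear receptor, drives the maturation of the proximal tubule, and KLF15 is a zinc-finger factor of differentiated podocytes and tubule cells that in mice restrains fibrosis. TGFb is a main signal that turns tubule epithelium toward matrix production.

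The promoter window of PAX8 is shown because PAX8 changed more after 12 h of TGFb than LHX1, the only other one of the 7 factors that could be tested. RefSeq (GRCh38.p14) gave windows of 300 bases, from 250 before to 50 after a start, for 6 of the 7 genes, LHX1 being the exception. In the PAX8 window (chr2:113278872-113279171, minus strand) capitals mark the SMAD box CAGAC. The line runs 5′ to 3′ along the gene.
PAX8 promoter: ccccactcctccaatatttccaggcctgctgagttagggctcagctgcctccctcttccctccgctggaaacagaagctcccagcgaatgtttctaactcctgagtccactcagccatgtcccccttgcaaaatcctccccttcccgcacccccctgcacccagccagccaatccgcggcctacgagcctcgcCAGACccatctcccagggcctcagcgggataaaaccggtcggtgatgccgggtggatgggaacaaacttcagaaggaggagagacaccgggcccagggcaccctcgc
Both strands were searched. The PAX8 window held 1 SMAD box, which begins at -57 with the start counted as 0, and 45.3% of the 35116 RefSeq windows of this length hold at least 1. It also held 1 E-box CANNTG, in the form CAGCTG, at -209, and 68.7% of windows hold at least 1. These matches describe letters and not binding.

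Of the 7 factors, PAX8 and LHX1 were expressed and the other 5 were at or near 0. EMX2 (chromosome 10, 117542444 to 117549546, plus strand), WT1 (chromosome 11, 32387775 to 32435630, minus strand) and KLF15 (chromosome 3, 126342635 to 126357442, minus strand) were listed at 0 FPKM in all 15 libraries (fragments per kilobase of transcript, scaled to the mapped fragments of the library, so that levels of different genes can be compared). Gene positions were taken from GENCODE v29 (GRCh38, the build to which the authors aligned), in which all 7 genes are protein-coding. HNF4A (chromosome 20, 44355700 to 44434596, plus strand) was listed at 0 in 12 libraries and reached 0.00526 FPKM in mock replicate 2, 0.00659 FPKM in TGFb + FT895 1 h replicate 1 and 0.00766 FPKM in TGFb 1 h replicate 2. PAX2 (chromosome 10, 100735603 to 100829941, plus strand) was listed at 0 in 8 libraries and reached at most 0.0525 FPKM, in TGFb 12 h replicate 2. It was listed at 0 in all 3 TGFb 1 h libraries and in at least 1 library of every other group, so the ranges of the groups overlapped. Read depth is unknown, so no detection limit can be given, and none of these 5 genes was tested. A listed 0 can be a failed estimate, but of 35 genes that every cell uses, none was at 0 in any library, and the lowest value among them was 10.0 FPKM. The epithelial cadherin CDH1, however, was also listed at 0 in all 15 libraries, and an absent transcript cannot be told apart from a failed estimate here.

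**Figure D1:**
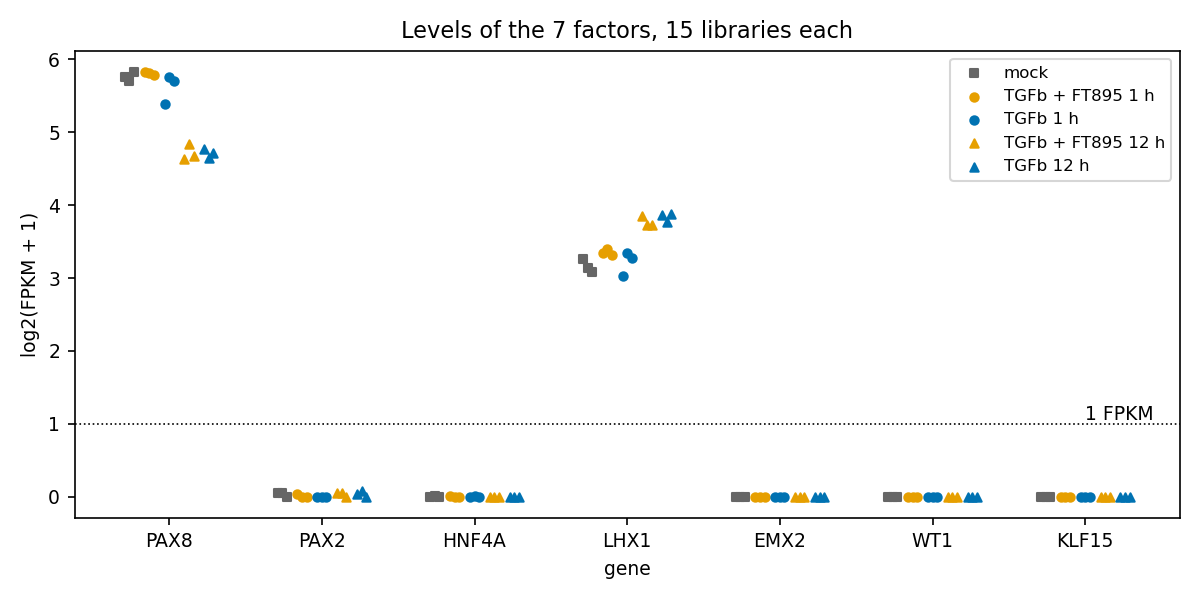
Level of each of the 7 factors in each of the 15 libraries as log2(FPKM + 1), with 1 point per library and colour and shape for the group; the dotted line marks 1 FPKM. PAX8 and LHX1 lie far above the line in all libraries, and PAX2, HNF4A, EMX2, WT1 and KLF15 lie at or next to 0.

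PAX8 (chromosome 2, 113215997 to 113278950, minus strand) was abundant in mock and in both groups of 1 h and lower in both groups of 12 h. Its level was 53.4, 51.2 and 55.6 FPKM in the mock libraries. At 1 h it was 55.8, 55.5 and 54.3 FPKM with FT895 added to TGFb, against 40.8, 52.9 and 51.2 FPKM with TGFb and vehicle. At 12 h it was 23.9, 27.5 and 24.5 FPKM with FT895 added, against 26.2, 24.0 and 25.2 FPKM with TGFb and vehicle. The 6 libraries of 12 h all lay below the 9 others, while within 12 h the groups overlapped. By mean level PAX8 ranked 2600 of 24880 loci after 12 h of TGFb, against 1195 in mock, where it stood at the 95.2 percentile.

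LHX1 (chromosome 17, 36936785 to 36944612, plus strand) was less abundant and went the other way. Its level was 8.61, 7.80 and 7.49 FPKM in the mock libraries. At 1 h it was 9.16, 9.52 and 8.98 FPKM with FT895 added to TGFb, against 7.13, 9.18 and 8.70 FPKM with TGFb and vehicle. At 12 h it was 13.5, 12.3 and 12.2 FPKM with FT895 added, against 13.6, 12.6 and 13.7 FPKM with TGFb and vehicle. The 6 libraries of 12 h all lay above the 9 others. For neither PAX8 nor LHX1 was the share of all genes separated in this way counted. By mean level LHX1 ranked 4533 of 24880 loci after 12 h of TGFb, against 6617 in mock.

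**Figure D2:**
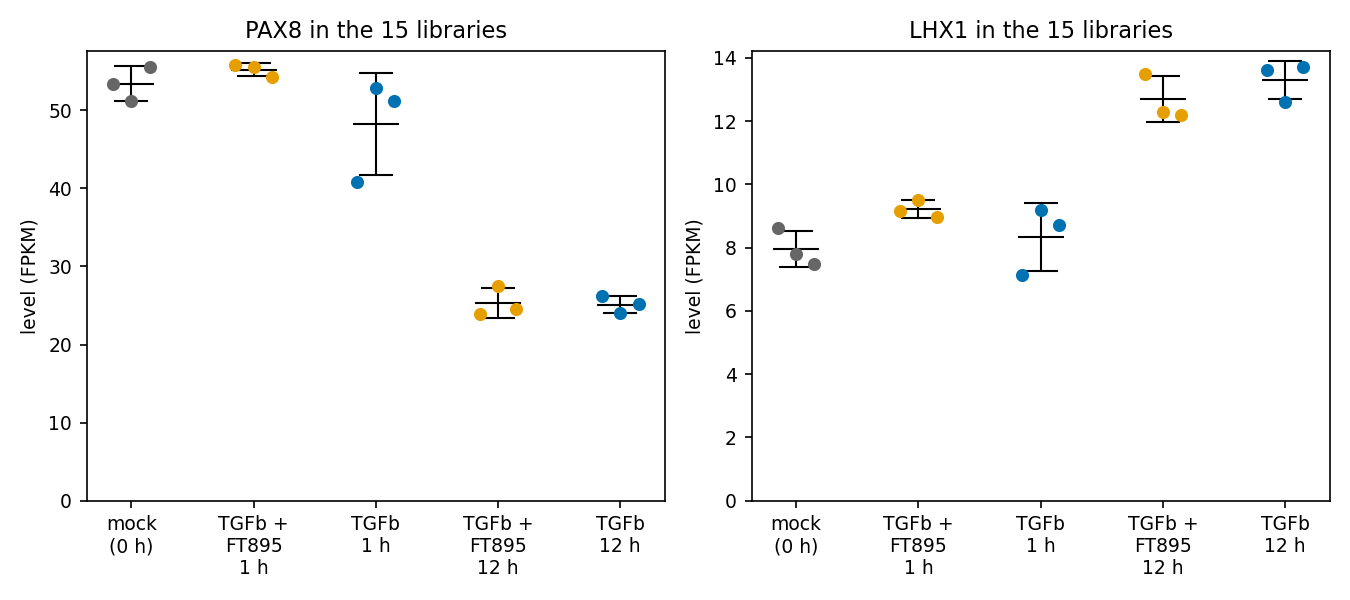
PAX8 (left) and LHX1 (right) in FPKM in the 15 libraries by group; points are libraries, and bars give the mean and SD of 3. All libraries of 12 h lie below the rest for PAX8 and above the rest for LHX1, and TGFb 1 h replicate 1 is the lowest library of its group for both genes.

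After 12 h of TGFb, PAX8 fell and LHX1 rose relative to mock. PAX8 averaged 25.1 ± 1.10 FPKM with TGFb for 12 h and 53.4 ± 2.22 FPKM in mock (SD, n = 3 each), 47.1% of the mock level. Its change was -1.06 on the log2(FPKM + 1) scale (95% interval -1.23 to -0.88; limma, adjusted p = 1.42e-07), a scale that understates changes of low genes. LHX1 averaged 13.3 ± 0.586 FPKM with TGFb for 12 h and 7.96 ± 0.578 FPKM in mock (SD, n = 3 each), a ratio of 1.67. Its change was 0.67 (0.50 to 0.85; limma, adjusted p = 1.20e-05). Both factors that could be tested were thus called in this comparison, in which 38.6% of the 12467 genes tested were called, 14.2% upward and 24.5% downward. The upward share of calls was 36.7%, and 52.4% with median-of-ratios scaling; neither PAX8 nor LHX1 changed direction or call with that scaling. In bulk RNA, fewer cells that express a gene and less of its RNA per cell cannot be told apart.

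Without the mock libraries, 12 h can be set against 1 h within each treatment, and these comparisons share no library with each other. All of these cells received TGFb, so an effect of longer TGFb cannot be told apart from that of time in culture here either. With TGFb and vehicle, PAX8 was at 25.1 ± 1.10 FPKM at 12 h and 48.3 ± 6.53 FPKM at 1 h (SD, n = 3 each), a log2 change of -0.91 (-1.09 to -0.73; limma, adjusted p = 9.02e-07). With FT895 added, it was at 25.3 ± 1.90 FPKM at 12 h and 55.2 ± 0.796 FPKM at 1 h (SD, n = 3 each), a change of -1.10 (-1.27 to -0.92; limma, adjusted p = 1.29e-07). LHX1 was at 13.3 ± 0.586 FPKM at 12 h and 8.34 ± 1.07 FPKM at 1 h with TGFb and vehicle (SD, n = 3 each), a change of 0.62 (0.45 to 0.79; limma, adjusted p = 3.07e-05). With FT895 added it was at 12.7 ± 0.719 FPKM at 12 h and 9.22 ± 0.273 FPKM at 1 h (SD, n = 3 each), a change of 0.42 (0.25 to 0.59; limma, adjusted p = 0.000924). Both genes were called in both comparisons, in which 41% of genes were called with TGFb and vehicle (16.8% upward, 24.2% downward) and 38.2% with FT895 added (13.5% upward, 24.8% downward). In the comparison with FT895 the upward share of calls was 35.2%, and 52.4% with median-of-ratios scaling.

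After 1 h of TGFb neither factor was called against mock. PAX8 averaged 48.3 ± 6.53 FPKM with TGFb for 1 h and 53.4 ± 2.22 FPKM in mock (log2 change -0.15, interval -0.33 to 0.03; limma, adjusted p = 0.266), and the groups overlapped. LHX1 averaged 8.34 ± 1.07 FPKM with TGFb for 1 h and 7.96 ± 0.578 FPKM in mock (0.05, interval -0.12 to 0.23; limma, adjusted p = 0.699), with overlapping groups. Neither reached an unadjusted p under 0.05, and 8.98% of all genes were called in this comparison, 3.7% upward and 5.28% downward. Library TGFb 1 h replicate 1 stood apart: over all genes its residual SD was 0.211 (log2), and that of the other libraries 0.107 to 0.156, and its summed FPKM was the highest (434520, against at most 406560). Without it the changes were -0.04 for PAX8 and 0.15 for LHX1, still not called.

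FT895 added to TGFb made no called difference to either factor. At 1 h PAX8 averaged 55.2 ± 0.796 FPKM with FT895 added and 48.3 ± 6.53 FPKM with vehicle. The groups did not overlap, but the share of all genes without overlap was not counted. The log2 change was 0.20 (interval 0.02 to 0.37, unadjusted; limma, adjusted p = 0.326), and 0.08 without TGFb 1 h replicate 1. LHX1 averaged 9.22 ± 0.273 FPKM with FT895 added and 8.34 ± 1.07 FPKM with vehicle at 1 h (0.14, interval -0.04 to 0.31; limma, adjusted p = 0.457), the groups overlapped, and the change was 0.04 without that library. PAX8 was thus the only one of the 2 with an unadjusted p under 0.05 at 1 h, and 0.0722% of all genes were called there. At 12 h PAX8 differed by 0.01 (interval -0.17 to 0.18; limma, adjusted p = 0.998) and LHX1 by -0.06 (interval -0.24 to 0.11; limma, adjusted p = 0.992), neither with an unadjusted p under 0.05, where 0.016% of genes were called. These intervals reach 0.18 upward and -0.24 downward, and a missed threshold does not show that FT895 leaves the genes alone. The difference between the FT895 effects at 12 h and 1 h was -0.19 for PAX8 (interval -0.44 to 0.06; limma, adjusted p = 0.697) and -0.20 for LHX1 (-0.45 to 0.04; limma, adjusted p = 0.685), again with no unadjusted p under 0.05 and with 0.168% of genes called, 0.144% upward and 0.0241% downward.

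**Figure D3:**
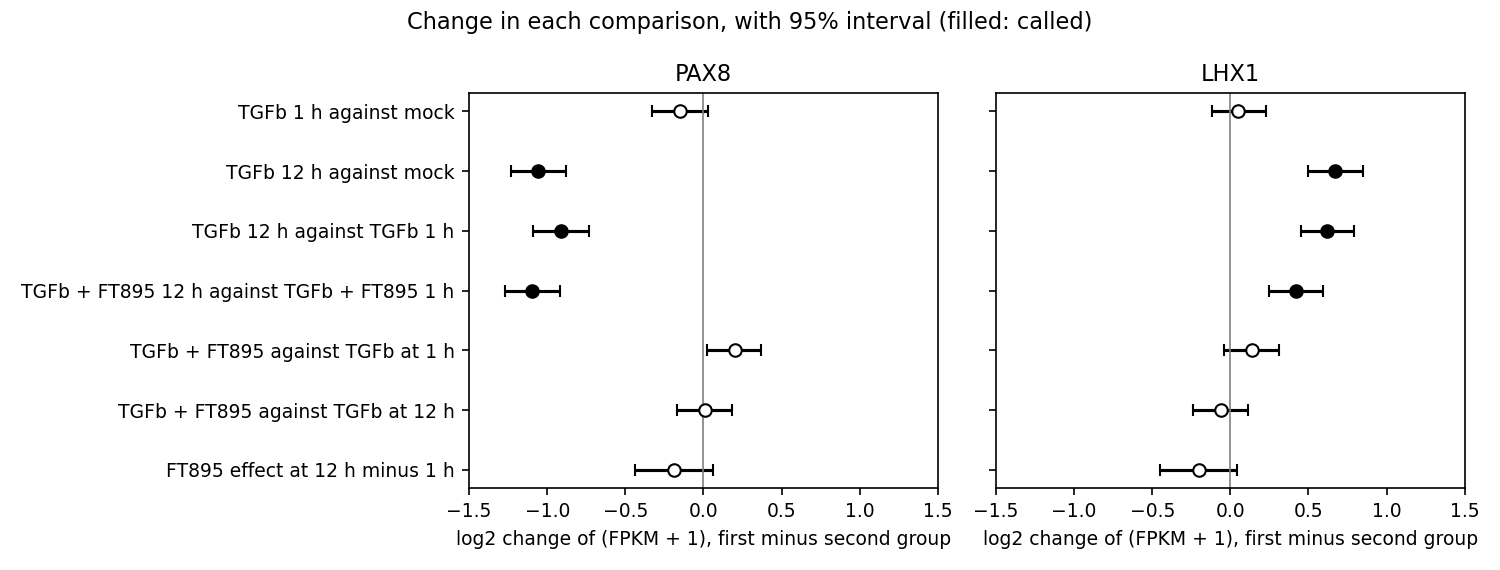
Log2 change of (FPKM + 1) of PAX8 (left) and LHX1 (right) in the 7 comparisons with unadjusted 95% intervals; filled points were called at an adjusted p under 0.05 in limma. The 3 comparisons of 12 h with mock or 1 h are called for both genes, downward for PAX8 and upward for LHX1, and the 4 others are not.

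Ordered by mean, PAX8 ran from TGFb + FT895 1 h (55.2 FPKM) through mock (53.4), TGFb 1 h (48.3) and TGFb + FT895 12 h (25.3) to TGFb 12 h (25.1). The values of neighbouring groups overlapped except between TGFb 1 h and TGFb + FT895 12 h. LHX1 ran from TGFb 12 h (13.3 FPKM) through TGFb + FT895 12 h (12.7), TGFb + FT895 1 h (9.22) and TGFb 1 h (8.34) to mock (7.96), and neighbours overlapped except between the groups of 12 h and those of 1 h. The 12 h groups thus stood at opposite ends for the 2 factors, while TGFb + FT895 1 h lay above TGFb 1 h and mock for both.

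The genes whose pattern was most like that of PAX8 over the 15 libraries, among 8048 annotated genes with a mean of at least 5 FPKM, were ANKRD33B (Pearson r 0.991), THRAP3, a splicing and mediator-associated protein (0.989), and SEMA6A, a transmembrane semaphorin (0.988). ANKRD33B averaged 3.37 ± 0.137 FPKM after 12 h of TGFb and 10.8 ± 0.129 FPKM in mock. The genes most like LHX1 were KREMEN1, a receptor for the WNT antagonist DKK1 (0.984), the phosphatase PTPRE (0.98) and the de novo DNA methyltransferase DNMT3B (0.979). DNMT3B averaged 33.4 ± 1.85 FPKM after 12 h of TGFb and 10.6 ± 0.0476 FPKM in mock. These coefficients are descriptions over 15 libraries that fall into 5 groups.

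Other transcription factors of the nephron, some of them also expressed in other tissues, were read beside PAX8 and LHX1. Of 47 such factors in 4 lists, 21 passed the filter of 1 FPKM in at least 3 libraries. After 1 h of TGFb 1 of the 21 was called up and 5 down against mock, or 28.6%, beside 8.98% of all genes. After 12 h of TGFb 4 of the 21 were called up and 8 down against mock, with a median log2 change of -0.08, the same as the -0.08 of all genes tested. The 57.1% called stand beside 38.6% for all genes. With FT895 added, 12 h against 1 h, 3 were called up and 7 down (median -0.10, against -0.09 for all genes). Over all genes 13.5% were called up and 24.8% down there. A member that reached the filter only in the group where it was high had to differ in comparisons with that group. This holds for SOX9 below, which was called up with FT895 added, 12 h against 1 h (0.71).

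Among factors of tubule maturation and metabolism, 7 of 11 passed the filter. PPARGC1A, the coactivator of mitochondrial biogenesis, averaged 1.09 ± 0.183 FPKM after 12 h of TGFb and 4.04 ± 0.124 FPKM in mock (-1.28; limma, adjusted p = 7.16e-08). It was already called down at 1 h (-0.42; limma, adjusted p = 0.015). HNF4G, the paralog of HNF4A, averaged 1.68 FPKM after 12 h of TGFb and 1.83 FPKM in mock and was not called (-0.08).

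Among nephric lineage and progenitor factors, 7 of 16 passed the filter. SIM1, a factor of the nephric duct and proximal segment in fish, averaged 1.83 ± 0.0894 FPKM after 12 h of TGFb and 5.18 ± 0.194 FPKM in mock (-1.13; limma, adjusted p = 4.04e-08), and it too was called down at 1 h (-0.49; limma, adjusted p = 0.00162). SALL1, which keeps nephron progenitors, fell by 0.53 after 12 h of TGFb. Its mean was 8.16 FPKM in mock, already 5.76 FPKM after 1 h of TGFb, and 5.35 FPKM after 12 h. SOX4 rose by 0.19, a call lost without mock replicate 1 or 3 or TGFb 12 h replicate 1 or 3. SOX9, a marker of tubule repair, averaged 1.43 ± 0.246 FPKM with TGFb and FT895, 0.803 ± 0.0686 FPKM with TGFb and vehicle at 12 h and 0.433 ± 0.0549 FPKM in mock. It reached the filter through the TGFb + FT895 12 h libraries, and the FT895 difference at 12 h (0.42; limma, adjusted p = 0.131) was not called. EYA1 and MYCN were listed at 0 in every library.

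The loop, distal and collecting duct factors had 0 called up, 3 down and 1 not called of 4 that passed after 12 h of TGFb, where 24.5% of all genes were called down and 14.2% up. ELF3, an epithelial ETS factor, averaged 12.8 ± 0.513 FPKM after 12 h of TGFb and 26.6 ± 2.25 FPKM in mock (-1.0; limma, adjusted p = 5.49e-09). It was the closest of all nephron factors to a call for FT895, with -0.34 at 1 h (limma, adjusted p = 0.0619) and -0.30 at 12 h (limma, adjusted p = 0.0812). TFAP2A fell by 0.45 and IRX3 by 0.39. Both means were already lower after 1 h of TGFb, when only 1 of the 4 factors was called down, beside 5.28% of all genes. TFAP2A averaged 9.49 FPKM in mock, 6.56 FPKM after 1 h and 6.65 FPKM after 12 h, and IRX3 2.69, 2.10 and 1.81 FPKM. Podocyte and stromal factors had 2 up, 0 down and 1 not called of 3. FOXC1 averaged 3.33 ± 0.399 FPKM after 12 h of TGFb and 1.98 ± 0.295 FPKM in mock (0.54). It already averaged 3.03 FPKM after 1 h of TGFb. With FT895 added, its change from 1 h to 12 h was not called (0.05). FOXD1, a factor of kidney stroma, averaged 7.31 ± 0.681 FPKM after 12 h of TGFb and 5.42 ± 0.564 FPKM in mock (0.37). After 1 h of TGFb FOXD1 averaged 5.93 FPKM. For FT895 against vehicle, 0 of the 21 factors were called in limma at 1 h or 12 h, with 5 at 1 h and 4 at 12 h at an unadjusted p under 0.05. Over all 12467 genes, 1720 at 1 h and 767 at 12 h had an unadjusted p under 0.05, and 0.0722% and 0.016% were called.

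**Figure D4:**
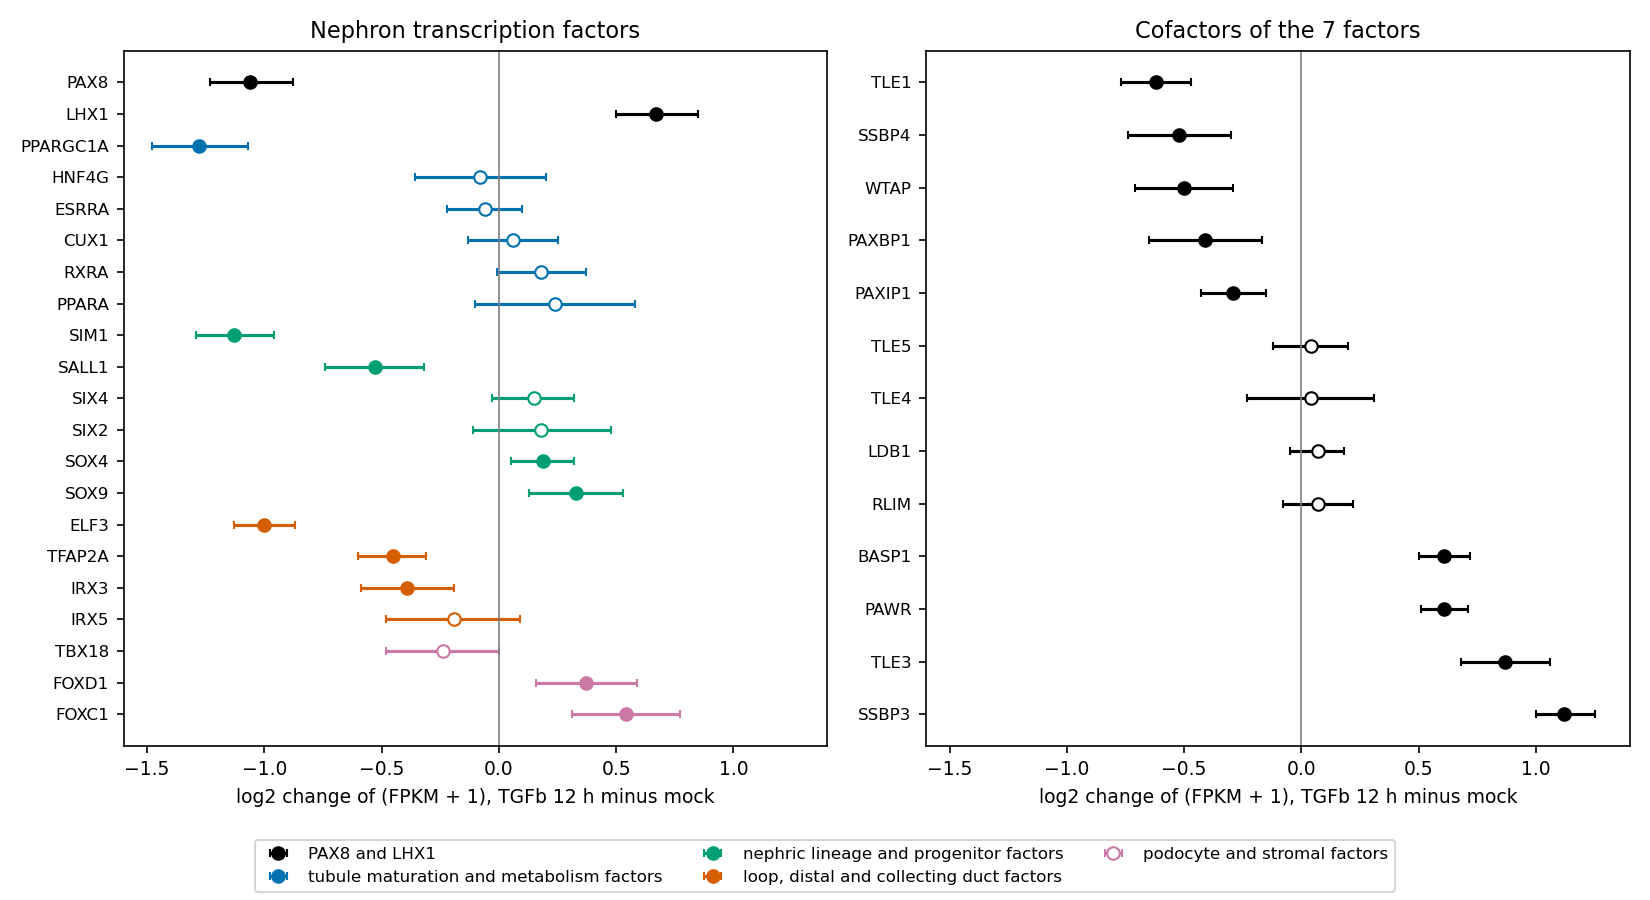
Log2 change of (FPKM + 1) after 12 h of TGFb against mock for PAX8, LHX1 and other nephron factors that passed the filter (left, coloured by list) and for 13 cofactors (right), with unadjusted 95% intervals; filled points were called. PAX8, PPARGC1A, SIM1 and ELF3 lie at or beyond -1, and SSBP3 beyond 1.

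Of 15 cofactors through which these factors act, 13 passed the filter; TLE2 and SSBP2 did not, with means of 0.181 and 0.762 FPKM over the 15 libraries. After 12 h of TGFb 4 of the 13 rose, 5 fell and 4 were not called, beside 14.2% of all genes called up and 24.5% called down (median 0.04, against -0.08 for all genes). SSBP3, a single-stranded DNA-binding protein that joins the LDB1 complex on LHX1, averaged 27.6 ± 0.631 FPKM with TGFb for 12 h and 12.1 ± 0.173 FPKM in mock (1.12; limma, adjusted p = 1.25e-09). Its relative SSBP4 fell by 0.52. LDB1 itself, the adaptor of LIM-homeobox factors, averaged 33.3 FPKM after 12 h of TGFb and 31.7 FPKM in mock and was not called (0.07), but was called up with median-of-ratios scaling. Among the Groucho corepressors, which PAX proteins recruit, TLE1 and TLE3 diverged, and TLE4 and TLE5 were not called (0.04 each). TLE1 averaged 26.1 ± 1.02 FPKM after 12 h of TGFb and 40.6 ± 1.06 FPKM in mock (-0.62). TLE3 averaged 9.70 ± 0.573 FPKM after 12 h of TGFb and 4.86 ± 0.176 FPKM in mock (0.87). PAXIP1, which links PAX proteins to histone methylation, fell by 0.29 and PAXBP1 by 0.41, the second call being lost without TGFb 12 h replicate 2. After 1 h of TGFb TLE3 already averaged 7.28 FPKM. PAXBP1 averaged 10.9 FPKM in mock, 7.51 FPKM after 1 h and 8.01 FPKM after 12 h of TGFb. Of the partners of WT1, the corepressor BASP1 rose by 0.61, the pro-apoptotic PAWR by 0.61, and WTAP, a subunit of the RNA methylation complex, fell by 0.50, in cells that listed WT1 itself at 0.

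Few of the genes reported as targets of these factors passed the filter, and those that were called did not share a direction. Of 14 genes reported for hepatocyte nuclear factors, HNF4A among them, 4 passed the filter, and CUBN, SLC34A1 and PKHD1 reached at most 0.0322, 0.0403 and 0.0312 FPKM. After 12 h of TGFb 0 of the 4 rose and 2 fell (PKD2, -0.42, and SOCS3, -0.26), beside 14.2% of all genes called up and 24.5% called down. The SOCS3 call was lost in 14 of 20 alternatives, among them median-of-ratios scaling and the omission of mock replicate 1, 2 or 3. With FT895 added, 12 h against 1 h, SOCS3 was called down (-1.47), a call kept in all 20 alternatives. After 1 h of TGFb 1 of the 4 was called up and 1 down, beside 3.7% and 5.28% of all genes. Of 8 genes reported for PAX2 or PAX8, only the growth factor GDNF passed, at 2.40 ± 0.146 FPKM after 12 h of TGFb and 2.76 ± 0.416 FPKM in mock, and it was not called (-0.14). The receptor RET reached at most 0.131 FPKM and GATA3 0.605 FPKM. Of 8 genes reported for WT1, 5 passed, of which 2 were called up and 3 down after 12 h of TGFb, beside 38.6% of all genes called either way: podocalyxin (PODXL, 0.76) and synaptopodin (SYNPO, 0.63) rose, and amphiregulin (AREG, -3.55), BCL2 (-0.92) and SPRY1 (-0.72) fell. SPRY1 averaged at least 1 FPKM in mock alone, so its passing of the filter rested largely on the group where it was high. Its direction also depended on the comparison. With FT895 added SPRY1 was called up at 12 h against 1 h (0.66), at 0.912 FPKM against 0.211 FPKM. Of 6 reported for KLF15, 2 passed: BCAT2, which starts the breakdown of branched-chain amino acids, fell by 0.36, and SYNPO, which both lists hold, rose.

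Relatives of the same families were mostly silent, and none that passed the filter reached the level of PAX8. In mock, however, PAX6 was above LHX1 (11.1 against 7.96 FPKM). In the PAX family 1 of the 7 other genes passed the filter. PAX6, known from eye and pancreas, averaged 13.6 ± 1.90 FPKM after 12 h of TGFb and 11.1 ± 0.336 FPKM in mock and was not called (0.26; limma, adjusted p = 0.131) unless TGFb + FT895 12 h replicate 2 was left out. Against 8.10 ± 0.225 FPKM after 1 h of TGFb, its level at 12 h was called higher (0.67; limma, adjusted p = 0.000943). The genes PAX1, PAX3, PAX4 and PAX7 were listed at 0 throughout. Of 11 other LIM-homeobox genes 4 passed (LHX2, LHX4, LHX6 and ISL2). After 12 h of TGFb 0 rose and 1 fell, beside 14.2% of all genes called up and 24.5% called down. That 1 was LHX4 (-0.34), a call lost without mock replicate 1 or 3 or TGFb 12 h replicate 2 or 3. None of these 4 shared the rise of LHX1.

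Defining markers set the background for the label of proximal tubule cells. Of 13 proximal tubule markers 4 averaged at least 1 FPKM: HAVCR1, the injury marker KIM-1, GGT1, CDH6 and MME. The endocytic receptor LRP2 and the anion transporters SLC22A6 and SLC22A8 were listed at 0 in all libraries. The summed level of the 13 was 189 to 207 FPKM after 12 h of TGFb and 255 to 277 FPKM in mock. After 12 h of TGFb 3 of these 4 fell against mock, HAVCR1 by 0.82, MME by 0.68 and GGT1 by 0.25. CDH6, a cadherin of the proximal tubule, rose by 0.31. Over all genes 24.5% were called down and 14.2% up. After 1 h of TGFb 3 of the 4 were already called down and 1 was not called, beside 5.28% of all genes called down. The GGT1 call was lost with median-of-ratios scaling and without mock replicate 1 or 3 or TGFb 12 h replicate 1. The part of such shifts in the fall of PAX8 was not tested. Markers of other cells were at 0 or near it for endothelium (at most 0.0256 FPKM summed over 4) and for loop, distal tubule and collecting duct (at most 0.0532 FPKM over 6). The podocyte markers NPHS1 and PTPRO were at 0, with PODXL and SYNPO present, and the 5 of that list summed to 17.0 to 18.0 FPKM after 12 h of TGFb and 10.0 to 10.8 FPKM in mock. Of the fibroblast list only LUM and of the leukocyte list only CD68 averaged at least 1 FPKM. The fibroblast list summed to 5.29 to 7.69 FPKM after 12 h of TGFb and 9.69 to 9.87 FPKM in mock, most of it LUM. PDGFRB, which did not pass the filter and was not tested, was at 0.479 to 0.661 FPKM after 12 h of TGFb. In mock PDGFRB was at 0.0521 to 0.0976 FPKM. Of the same list DCN and COL1A2 reached at most 0.122 and 0.0445 FPKM in any library, and PDGFRA was listed at 0 in all. The leukocyte list summed to 33.0 to 37.8 FPKM after 12 h of TGFb and 40.7 to 43.8 FPKM in mock.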

How the data were processed

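RNA-seq values of 15 HK-2 libraries were used. Per the submitters' processing notes, HISAT2 and StringTie were used with GRCh38; neither versions nor annotation release nor strandedness is stated. The authors deposited FPKM, 1 column per library, with 0 columns unused. Summed FPKM ran from 386532 to 434520 per library. Read depth is unknown: among 693 to 807 loci under 0.1 FPKM in both libraries of a pair, the fullest bin of width 0.02 held at most 2.76% of log2 ratios, so no read unit was visible.

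Genes with at least 1 FPKM in at least 3 libraries (12467) were fitted as log2(FPKM + 1) in limma 3.58.1 under R 4.3.3, with a mean per group, 10 residual degrees of freedom and a mean-variance trend. Calls were made at a Benjamini-Hochberg adjusted p under 0.05 over all genes in each of 7 comparisons, two-sided; intervals are unadjusted 95% intervals. The script was tested on simulated data. Members and lists were chosen with earlier results of these data known. List genes are named where called, up to 6 per list, or else as the highest member, and like genes are the 3 of highest Pearson r; a few list genes and markers were named after their values were seen. Genes overlapping PAX8, HNF4A, LHX1, EMX2 and WT1 on the opposite strand (PAX8-AS1, HNF4A-AS1, AC243773.1, EMX2OS and WT1-AS among them) had no matched row and were not analysed here, and without a stated strand their reads cannot be told apart from those of the gene. How reads shared by paralogs were assigned is likewise unknown. Some genes of the lists are counted but not reported here by name. Promoter windows came from RefSeq, GRCh38.p14.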

Additional observations from a re-analysis of the deposited data

How the results depend on the processing

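PAX8 and LHX1 kept their direction and call in the 3 comparisons of 12 h with mock or 1 h under all 20 alternatives (pseudocount of 0.1, no filter, median-of-ratios scaling, quantile normalization, replicate block, and each library left out), and neither was called in the other 4 under any of them. Over the left-out libraries the PAX8 change after 12 h of TGFb against mock ran from -1.09 to -1.03 and that of LHX1 from 0.64 to 0.72. The values gave no sign that replicate numbers pair the libraries, which does not show how the libraries were made. Deviations from group means correlated above 0.1 in 2 of 30 same-numbered pairs and 4 of 60 other pairs. Of the 15 libraries, 3 correlated best with their own number. The replicate block gave 4756 called genes after 12 h of TGFb against mock, in place of 4814, and 2 of 2 members. Counts over all genes moved more. For FT895 against vehicle at 12 h, 2 genes were called, and 6 with a pseudocount of 0.1, 5 with no filter, 7 with median-of-ratios scaling, 5 with quantile normalization, 1 with the replicate block and 1 to 44 with a library left out (44 without TGFb 1 h replicate 1). At 1 h it was 9, and 16 with median-of-ratios scaling and 4 to 19 with a library left out (4 without TGFb + FT895 1 h replicate 2, 19 without TGFb 12 h replicate 1). For TGFb 1 h against mock it was 1119, and 736 with no filter and 409 to 1520 with a library left out (409 without mock replicate 3); median-of-ratios scaling raised the upward share of those calls to 57.2%, against 41.2%. The FT895 effect at 12 h minus 1 h gave 21, and 8 to 28 with a library left out (8 without TGFb + FT895 1 h replicate 2). The cause of these shifts was not tested. The same alternatives were applied to the list genes after seeing the data. Of 36 called after 12 h of TGFb against mock, 30 kept their call in every alternative that tested them (20 a gene, 17 for SOX9). With FT895 added, 12 h against 1 h, 24 of 31 did so. Calls of list genes in the other comparisons, those of TGFb 1 h against mock among them, were not put to these alternatives. Depth is unknown, so values near 0 carry no detection limit.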
